A study of Homo sapiens with 4 samples.

Results

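The genes described here are 10 members of the transforming growth factor beta (TGF-beta) pathway: the ligand genes TGFB1 and TGFB2, the receptor genes TGFBR1 and TGFBR2, the latent TGF-beta binding protein genes LTBP1 and LTBP2, the signalling gene SMAD3, the inhibitor genes SMAD7 and SKIL, and TGFBI, a gene known for its response to TGF-beta. They were chosen by name and role, and all 10 are among the 12033 genes of the expression table. mRNA was sequenced from BJ cells, a line of human fibroblasts immortalized with hTERT, in which 4-hydroxytamoxifen (4-OHT) switches on oncogenic RASG12V and drives oncogene-induced senescence. Each of the 4 libraries came from cells under 4-OHT for 14 days after transduction with a CRISPR vector. In the libraries sgRNA-AP1-69 and sgRNA-AP1-71 a guide (69 or 71) was aimed at the enhancer Enh AP1-OIS1, in sgRNA-FOXF1 the guide was aimed at the gene FOXF1, and sgRNA-NT carried a non-targeting guide. RAS was induced in all 4, so no library shows these genes without RAS, and every condition was sequenced once. The transduced cells were selected for the vector with antibiotics.

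TGF-beta is made as an inactive precursor. The protease furin cuts it, but the released propeptide stays wrapped around the growth factor, and latent TGF-beta binding proteins (LTBPs) tether this latent complex to fibrillin and fibronectin fibres of the extracellular matrix. Integrins and thrombospondin can then free the growth factor, which binds the receptor TGFBR2. TGFBR2 recruits and phosphorylates TGFBR1, the kinase that phosphorylates SMAD2 and SMAD3. These enter the nucleus with SMAD4, where the corepressors SKI and SKIL hold their target genes back until they are degraded. SMAD7 closes a feedback loop by blocking TGFBR1. Senescent fibroblasts are known to secrete TGF-beta, which can slow the growth of their neighbours, and TGF-beta is a strong inducer of collagen and fibronectin in fibroblasts.

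Values are RPKM, library-scaled reads per kilobase of transcript length. The authors quantile-normalized them over the 4 libraries, so that the libraries share nearly the same set of values, and gave them to 1 decimal with a floor of 1 RPKM. Read counts were not used here, so neither depth nor counting error is known. Log2 ratios compare a targeted library with sgRNA-NT, and a negative ratio means a lower level in the targeted library. With 1 library a condition there is no replicate error and no test, and every ratio to sgRNA-NT rests on the same single sgRNA-NT library. The only measure of spread is the SD of the log2 ratio of sgRNA-AP1-71 to sgRNA-AP1-69, which was 0.29 over the 7596 genes averaging 2 RPKM or more, called the genes compared from here on. It was 0.36 over the 1800 genes with means of 1.5 to 3 RPKM. These guides share a target site but differ in sequence, so the SD holds both chance and guide differences. It holds no variation of sgRNA-NT, and neither does the SD over the enhancer guides given below with each mean. The enhancer guides are not replicates of each other. In bulk RNA, fewer cells that express a gene and less mRNA per cell cannot be told apart.

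Of the 10 genes, 7 were above the floor in at least 1 library and 5 were among the genes compared, namely TGFB1, TGFBR2, LTBP1, LTBP2 and SMAD3. TGFB2, SKIL and TGFBI were listed at the floor in all 4 libraries, as were 2421 genes of the table (20.1%). SMAD4, which every cell that signals through SMADs uses, was also listed at no more than 1.3 RPKM in any library. A value at the floor is therefore not read as absence, and no fold is given for these 3 genes. The plot of levels by library shows the range from the floor to TGFBR2.

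**Figure D1:**
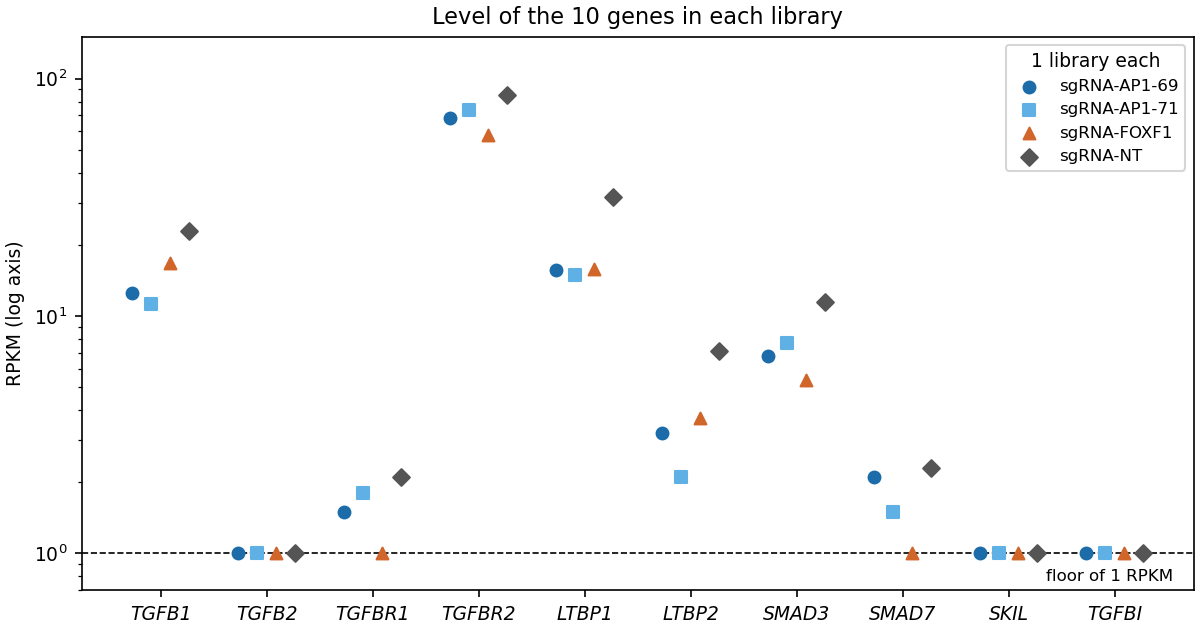
Level of each of the 10 genes (RPKM, log axis) in each of the 4 libraries, with 1 point per library and the floor of 1 RPKM as a dashed line. TGFBR2 lies between 58.1 and 85.1 RPKM, TGFB2, SKIL and TGFBI lie on the floor throughout, and the sgRNA-NT point is the highest for each of the other 7 genes.

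TGFB1 (ENSG00000105329), the gene of the TGF-beta ligand that dominates in most tissues, lies on the minus strand of chromosome 19 at 41807492 to 41859827 (GRCh37, the same build as hg19). It was at 12.5 RPKM in sgRNA-AP1-69, 11.2 in sgRNA-AP1-71 and 16.7 in sgRNA-FOXF1, against 22.9 RPKM with sgRNA-NT. Both enhancer guides gave close to the same level, sgRNA-FOXF1 an intermediate one, and sgRNA-NT the highest. The log2 ratios were -0.87, -1.03 and -0.46 in that order of targeted libraries, and the mean over the enhancer guides was -0.95 ± 0.11 (SD, n = 2 guides). In linear terms TGFB1 was lower by 1.83-fold, 2.04-fold and 1.37-fold. The exons of TGFB1 share 215 nt with HNRNPUL1 on the opposite strand. TGFB2 (ENSG00000092969), a second ligand gene at 218518678 to 218617961 on the plus strand of chromosome 1, was listed at the floor in every library. Its exons share 1371 nt with other exons on its own strand and 701 nt with exons on the opposite strand (TGFB2-AS1 and TGFB2-OT1). What part these overlaps have in its listed value was not tested. TGFB3, the remaining ligand gene, is not in the table used here.

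The receptor genes stood far apart in level. TGFBR2 (ENSG00000163513; chromosome 3, 30648093 to 30735634, plus strand), which encodes the receptor that binds the ligand first, was the highest of the 10 genes in every library. Its levels were 68.3 RPKM in sgRNA-AP1-69, 73.5 in sgRNA-AP1-71 and 58.1 in sgRNA-FOXF1, against 85.1 RPKM with sgRNA-NT. The log2 ratios of -0.32, -0.21 and -0.55 did not reach 1.5-fold in any library, although the value with sgRNA-FOXF1 was 1.46-fold lower. For the enhancer guides the mean was -0.26 ± 0.07 (SD, n = 2 guides). That mean is smaller in size than the guide-to-guide SD of 0.29 over all genes, which holds no variation of sgRNA-NT. TGFBR1 (ENSG00000106799; chromosome 9, 101866320 to 101916474, plus strand), which encodes the signalling kinase of the receptor pair, was close to the floor at 1.5 RPKM with sgRNA-AP1-69 and 1.8 with sgRNA-AP1-71. It was listed at the floor with sgRNA-FOXF1 and at 2.1 RPKM with sgRNA-NT. The log2 ratios with the enhancer guides were -0.49 and -0.22, and with sgRNA-FOXF1 TGFBR1 was at least 2.1-fold lower. Per kilobase, TGFBR2 was 45.5-fold above TGFBR1 with sgRNA-AP1-69, 40.8-fold with sgRNA-AP1-71 and at least 58.1-fold with sgRNA-FOXF1, against 40.5-fold with sgRNA-NT.

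Of the LTBP genes, LTBP1 differed evenly across the targeted libraries and LTBP2 did not. LTBP1 (ENSG00000049323; chromosome 2, 33172020 to 33624576, plus strand), whose product joins the latent complex to the matrix, was at 15.6 RPKM in sgRNA-AP1-69, 14.9 in sgRNA-AP1-71 and 15.8 in sgRNA-FOXF1, against 31.8 RPKM with sgRNA-NT. The targeted libraries lay close together, at 49.1%, 46.9% and 49.7% of sgRNA-NT. The log2 ratios were -1.03, -1.09 and -1.01, and the enhancer guides averaged -1.06 ± 0.05 (SD, n = 2 guides). LTBP2 (ENSG00000119681; chromosome 14, 74964886 to 75079081, minus strand) encodes a related protein of elastic fibres that, unlike LTBP1, does not bind latent TGF-beta. It was at 3.2 RPKM in sgRNA-AP1-69, 2.1 in sgRNA-AP1-71 and 3.7 in sgRNA-FOXF1, against 7.1 RPKM with sgRNA-NT. Here the enhancer guides differed from each other, with log2 ratios of -1.15 and -1.76 and a mean of -1.45 ± 0.43 (SD, n = 2 guides), and sgRNA-FOXF1 stood at -0.94. Exons of unnamed genes on the opposite strand share 249 nt with LTBP1 and 207 nt with LTBP2.

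SMAD3 (ENSG00000166949; chromosome 15, 67356101 to 67487511, plus strand), the gene of the receptor-activated transcription factor, was at 6.8 RPKM in sgRNA-AP1-69, 7.7 in sgRNA-AP1-71 and 5.4 in sgRNA-FOXF1, against 11.4 RPKM with sgRNA-NT. The lowest level was with sgRNA-FOXF1, unlike TGFB1 and LTBP2. The log2 ratios were -0.75, -0.57 and -1.08, with a mean of -0.66 ± 0.13 for the enhancer guides (SD, n = 2 guides). Its exons share 182 nt with an unnamed gene on the opposite strand. SMAD7 (ENSG00000101665; chromosome 18, 46446223 to 46477335, minus strand), the inhibitor that SMAD signalling itself induces, was at 2.1 RPKM with sgRNA-AP1-69 and 1.5 with sgRNA-AP1-71, listed at the floor with sgRNA-FOXF1 and at 2.3 RPKM with sgRNA-NT. The enhancer guides gave log2 ratios of -0.13 and -0.62, and with sgRNA-FOXF1 SMAD7 was at least 2.3-fold lower. At such levels a step of 0.1 RPKM, the last digit given, is a visible part of the ratio. SKIL (ENSG00000136603; chromosome 3, 170075130 to 170114623, plus strand) and the target gene TGFBI (ENSG00000120708; chromosome 5, 135364677 to 135399507, plus strand), which encodes a matrix protein, were listed at the floor in all 4 libraries and give no ratio.

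**Figure D2:**
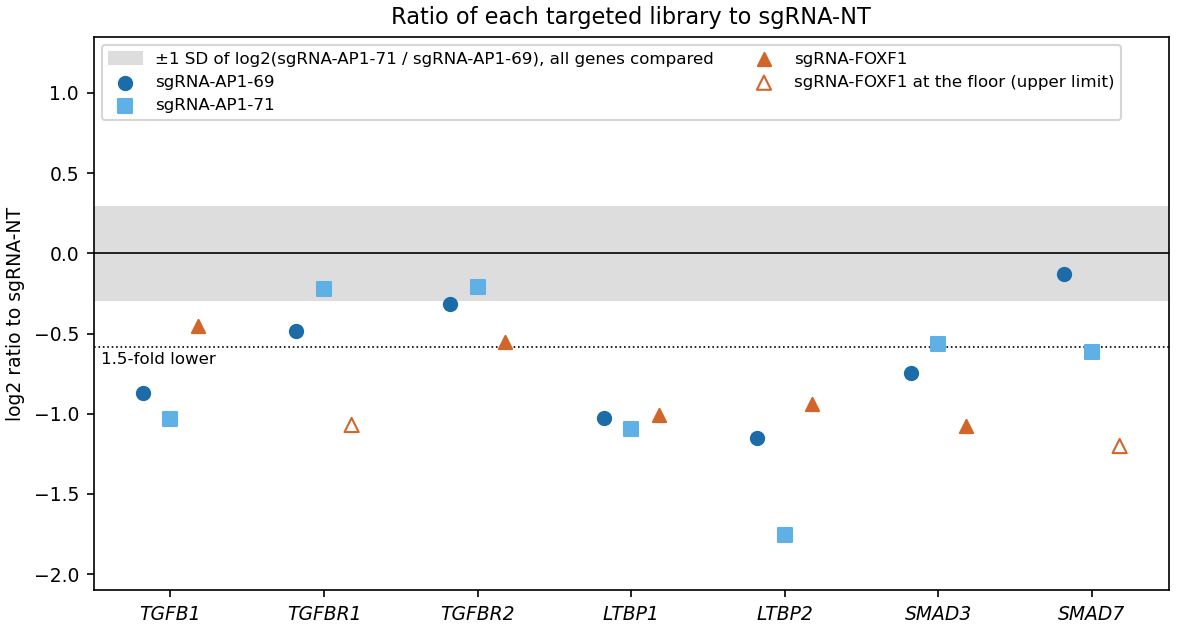
Log2 ratio to sgRNA-NT in each targeted library for the 7 genes above the floor, with open symbols where the sgRNA-FOXF1 value is at the floor and the ratio an upper limit. The grey band spans 1 SD (0.29) of the ratio between the enhancer guides on each side of 0, and the dotted line marks 1.5-fold lower; LTBP1 lies near -1 in all 3 libraries while LTBP2 spreads from -1.76 to -0.94.

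The order of levels was TGFBR2, LTBP1, TGFB1, SMAD3 and LTBP2 in sgRNA-AP1-69, sgRNA-AP1-71 and sgRNA-NT. With sgRNA-FOXF1, TGFB1 stood above LTBP1, and the log2 ratio of LTBP1 to TGFB1 was -0.08 there. The guide-to-guide SD compares the same gene between libraries, so it gives no spread for a ratio between genes within a library. Whether these close neighbours differ in level is therefore not known. Elsewhere the ratio of LTBP1 to TGFB1 was 0.32 in sgRNA-AP1-69, 0.41 in sgRNA-AP1-71 and 0.47 in sgRNA-NT. LTBP2, SMAD7 and TGFBR1 closed the order, and SMAD7 and TGFBR1 changed places between sgRNA-AP1-69 (SMAD7 higher) and sgRNA-AP1-71 (TGFBR1 higher). The log2 ratio of SMAD7 to TGFBR1 was 0.49 in sgRNA-AP1-69, -0.26 in sgRNA-AP1-71 and 0.13 in sgRNA-NT. Both genes are close to the floor and no spread is known for this ratio, so the change of places is not read further. Among all 12033 genes, TGFBR2 was above 95.1% in sgRNA-AP1-69, 95.5% in sgRNA-AP1-71 and 94.3% in sgRNA-FOXF1, and above 96.1% with sgRNA-NT. LTBP1 was above 80.0%, 79.2% and 80.2% of genes in the targeted libraries and above 89.5% with sgRNA-NT.

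Counted at 1.5-fold against sgRNA-NT, 4 of the 5 genes compared were lower in sgRNA-AP1-69 (TGFB1, LTBP1, LTBP2 and SMAD3), where 9.93% of all genes compared were. With sgRNA-AP1-71 it was 3 of 5 (TGFB1, LTBP1 and LTBP2) against 14.7% of all genes, and SMAD3 lay just outside at 1.48-fold. With sgRNA-FOXF1 it was 3 of 5 (LTBP1, LTBP2 and SMAD3) against 13.2% of all genes. None of the 5 was at least 1.5-fold higher, where 8.18% of genes were in sgRNA-AP1-69, 14.0% in sgRNA-AP1-71 and 11.6% in sgRNA-FOXF1. All 5 had ratios below 0 in each library, as had 42.5%, 43.2% and 44.4% of the genes compared in that order. The median ratio over the 5 was -0.87 in sgRNA-AP1-69, -1.03 in sgRNA-AP1-71 and -0.94 in sgRNA-FOXF1, beside medians of 0.07, 0.08 and 0.05 over all genes compared. These 3 comparisons share sgRNA-NT, and a deviation of that library would appear in each of them.

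Other measurements moved with these ratios. Across the genes compared, longer transcripts had lower ratios to sgRNA-NT, with Spearman correlations to transcript length of -0.50 in sgRNA-AP1-69, -0.44 in sgRNA-AP1-71 and -0.45 in sgRNA-FOXF1 (7566 genes with an annotated length, which are not independent replicates). In the shortest 10% of genes the median ratio was 0.37, 0.43 and 0.32, and in the longest 10% it was -0.37, -0.40 and -0.43, in the same order of libraries. LTBP2 (8460 nt), LTBP1 (6502 nt), TGFBR1 (6492 nt), SMAD3 (6464 nt) and TGFBR2 (4530 nt) are longer than the median of 2902 nt, while TGFB1 (2780 nt) and SMAD7 (3341 nt) are near it. After the length trend was taken off by a spline, TGFB1 kept ratios of -0.87, -1.03 and -0.47 and LTBP1 had -0.68, -0.71 and -0.61. LTBP2 had -0.68, -1.21 and -0.41, which is under 1.5-fold with sgRNA-FOXF1, and SMAD3 had -0.40, -0.18 and -0.68, under 1.5-fold with both enhancer guides. TGFBR2 had -0.13, -0.01 and -0.33. TGFBR1 had -0.14, 0.16 and -0.67, with a changed sign in sgRNA-AP1-71 and an upper limit in sgRNA-FOXF1. Corrected for length, 3, 3 and 2 of the 5 genes were at least 1.5-fold lower, where 6.41%, 11% and 8.94% of all genes were. The sgRNA-FOXF1 ratio also followed GC content (Spearman correlation 0.33), the enhancer guide ratios less so (0.04 and -0.10). Corrected for GC content alone, TGFB1 with sgRNA-FOXF1 stood at -0.62, and 4 of the 5 genes were at least 1.5-fold lower in each library. Of all genes, 9.39%, 14.2% and 11% were. Corrected for length and GC content, TGFB1 had -0.73, -0.75 and -0.56, and LTBP2 with sgRNA-FOXF1 was past 1.5-fold again at -0.60. TGFBR1 with sgRNA-FOXF1 stood at -0.49, under 1.5-fold and again an upper limit. With both corrections 3 of the 5 genes were at least 1.5-fold lower in each library, where 5.98%, 10.3% and 7.16% of all genes were. The part of transcript length and GC content in these values was otherwise not tested.

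The remaining checks concern the libraries as a whole. FOXF1 itself was at 11.1 and 7.8 RPKM with the enhancer guides and 25 RPKM with its own guide, against 29.6 RPKM with sgRNA-NT, and mRNA with small insertions or deletions is still counted, so the sgRNA-FOXF1 value does not measure protein loss. HRAS was at 446.4, 427.4 and 707.6 RPKM, against 829.4 RPKM with sgRNA-NT, and the 13 mitochondrial mRNAs had median ratios of -1.02, -1.54 and -0.77. Of 8 fibroblast markers, 7 were above the floor, with FAP listed at it, and their summed level was 5138, 5325 and 5036 RPKM, against 3536 RPKM with sgRNA-NT. VIM and S100A4 make up most of that sum, and the median ratio over the 8 was -0.18, -0.04 and 0.01, with COL1A1, COL1A2 and DDR2 lower by more than 1.5-fold with the enhancer guides. Among 5 epithelial markers only KRT8 and KRT18 are in the table (summed 144.1, 83.6 and 137.7 RPKM, against 80.5 RPKM with sgRNA-NT), and none of 4 endothelial or 4 blood markers is in the table used here. What part RAS level, RNA quality, cell makeup or growth state has in the ratios of the 10 genes was not tested.

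sgRNA-FOXF1 could be set against the enhancer guides without use of sgRNA-NT. The question there is whether disrupting the gene and disrupting its enhancer leave these genes at the same level. TGFB1 and LTBP2 were higher with sgRNA-FOXF1 than the mean of the enhancer guides, by log2 ratios of 0.50 and 0.51, LTBP1 was level at 0.05, and TGFBR2 and SMAD3 were lower at -0.29 and -0.42. None of these 5 reached 1.5-fold, where 3.54% of all genes compared were lower and 5.86% higher by that much. TGFBR1 and SMAD7, which are not among the genes compared because of their low mean, had ratios of -0.72 and -0.83, both upper limits because sgRNA-FOXF1 was at the floor. The SD over all genes compared was 0.36, so TGFB1, LTBP2, SMAD3, TGFBR1 and SMAD7 lay outside 1 SD and TGFBR2 and LTBP1 inside it. For LTBP2 the reference decides the size, with 0.21 against sgRNA-AP1-69 alone and 0.82 against sgRNA-AP1-71 alone. This ratio followed the GC content of transcripts across genes (Spearman correlation 0.60, 7566 genes), and TGFB1 is rich in GC at 63.6%, where the median is 50.6%. Corrected for GC content, TGFB1 stood at 0.18 and LTBP2 at 0.35, SMAD3 stayed at -0.42, and SMAD7 stood at -0.99.

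**Figure D3:**
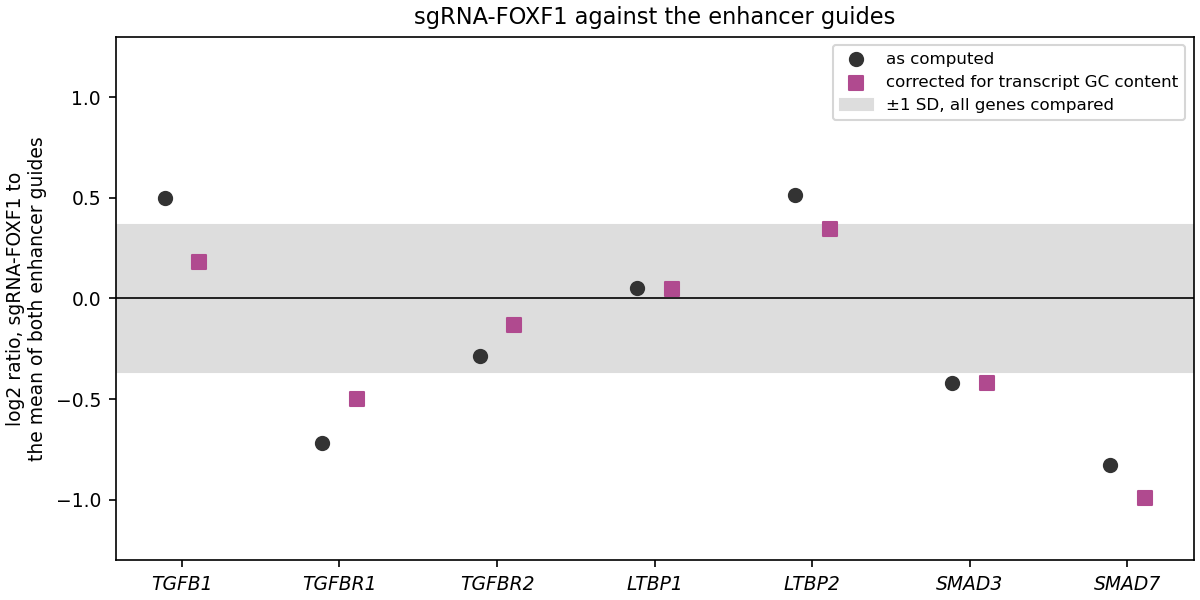
Log2 ratio of sgRNA-FOXF1 to the mean of both enhancer guides for the 7 genes above the floor, as computed (circles) and corrected for transcript GC content (squares), with 1 SD over all genes compared (0.36) as a grey band on each side of 0. The circle of TGFB1 lies at 0.50 and its square at 0.18; TGFBR1 and SMAD7 are upper limits.

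Between the enhancer guides, LTBP2 was the only one of the 10 genes to differ by 1.5-fold (log2 ratio of sgRNA-AP1-71 to sgRNA-AP1-69 of -0.61), where 2.84% of genes compared were lower and 2.41% higher by that much. SMAD7 followed at -0.49 and TGFBR1 at 0.26. The ratios of TGFB1 (-0.16), TGFBR2 (0.11), LTBP1 (-0.07) and SMAD3 (0.18) lay within the guide-to-guide SD of 0.29. The LTBP2 ratio rests on low levels, 3.2 RPKM in sgRNA-AP1-69 and 2.1 in sgRNA-AP1-71. Corrected for length, GC content or both, it was -0.52, -0.55 and -0.42, each under 1.5-fold.

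The stretch before the transcription start is shown for LTBP1, the gene with the most even difference, and for TGFB1, the ligand gene that its product holds. Each run covers the 250 bases before the start of the gene's canonical transcript (GENCODE v44 models lifted onto GRCh37), read 5′ to 3′ on the gene's own strand, and capitals mark TGACGTCA, the palindromic site known as a cyclic AMP response element. The LTBP1 stretch is chr2:33171770-33172019 (plus strand, 66.4% GC) and the TGFB1 stretch is chr19:41859828-41860077 (minus strand, 76.8% GC); the median over 11978 such stretches was 66.0% GC.
LTBP1: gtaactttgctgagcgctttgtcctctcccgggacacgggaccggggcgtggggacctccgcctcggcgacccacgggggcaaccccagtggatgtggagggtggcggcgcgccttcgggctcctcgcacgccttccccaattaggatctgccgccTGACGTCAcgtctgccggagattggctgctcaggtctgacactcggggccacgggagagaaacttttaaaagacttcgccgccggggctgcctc
TGFB1: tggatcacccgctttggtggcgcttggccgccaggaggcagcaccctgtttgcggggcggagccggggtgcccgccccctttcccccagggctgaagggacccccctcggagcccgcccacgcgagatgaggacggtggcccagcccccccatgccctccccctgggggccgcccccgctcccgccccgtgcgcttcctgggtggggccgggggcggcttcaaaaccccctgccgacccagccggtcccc
The stretches were searched on both strands for TGANTCA, the AP-1 site, for GTCTAGAC and AGCCAGACA, which SMAD3 and SMAD4 are known to bind, and for TAAACA, the core of forkhead sites. None of the 10 genes held any of these in its 250 bases, where 3.26%, 0.1%, 0.167% and 5.12% of all stretches did. TGACGTCA, searched after the sequences had been seen, was in LTBP1 and SKIL and in 3.13% of all stretches. These are matches of letters in a single window per gene, and other start sites of LTBP1 were not searched.

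Further genes of the pathway place the 10 among their partners. From 75 such genes, sorted by role, 61 are in the table and 47 could be compared. At least 1.5-fold lower were 19 in sgRNA-AP1-69, 24 in sgRNA-AP1-71 and 15 in sgRNA-FOXF1, and at least 1.5-fold higher were 1, 3 and 1, with the shares of all genes as given above for the 10. The median ratios over the 47 were -0.38, -0.65 and -0.27. Corrected for transcript length, the medians were -0.35, -0.53 and -0.03, the last of them close to 0. At that setting 14, 22 and 12 of the 47 were lower, where 6.41%, 11% and 8.94% of all genes were, and 2, 5 and 4 were higher, where 7.54%, 13.2% and 11.4% were. Of the ligand and receptor genes only ENG, which encodes the co-receptor endoglin, could be compared, at 74.9 RPKM in sgRNA-AP1-69, 51.7 in sgRNA-AP1-71 and 99.2 in sgRNA-FOXF1, against 119.3 RPKM with sgRNA-NT. TGFBR3, the gene of the co-receptor betaglycan, was listed at the floor.

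Genes of latency and activation had medians of -0.89 in sgRNA-AP1-69, -1.16 in sgRNA-AP1-71 and -0.42 in sgRNA-FOXF1 over 13 genes compared. Of these 13, 10, 11 and 6 were at least 1.5-fold lower, where 9.93%, 14.7% and 13.2% of all genes compared were. None was higher by that much, and the shares of all genes higher are those given above for the 10. Corrected for transcript length, 6, 10 and 3 were lower, where 6.41%, 11% and 8.94% of all genes were. The medians at that setting were -0.54, -0.74 and -0.14. FBN1, the gene of the fibrillin to which LTBP1 is anchored, was at 7.8, 7.0 and 9.2 RPKM in the targeted libraries, against 21.6 RPKM with sgRNA-NT, and FBN2, which encodes another fibrillin, was at 6.7, 4.3 and 7.4 RPKM, against 12.8 RPKM. ITGB1, a subunit of integrins that bind the latent complex, was at 120.6, 96.1 and 113.6 RPKM, against 283.1 RPKM with sgRNA-NT. THBS1, the gene of thrombospondin 1, was at 67.0, 64.0 and 45.3 RPKM, against 142.8 RPKM with sgRNA-NT. Of these 4 genes, FBN2 in sgRNA-FOXF1 stood closest to sgRNA-NT, at a log2 ratio of -0.79. FURIN, the protease that cuts the precursor, was at 35.6 and 24.9 RPKM with the enhancer guides and 49.4 with sgRNA-FOXF1, against 60.3 RPKM with sgRNA-NT. LTBP3, whose product binds latent TGF-beta as LTBP1 does, had 3.1, 2.1 and 5.1 RPKM, against 6.8 RPKM with sgRNA-NT. For FURIN and LTBP3 the ratio passed 1.5-fold with the enhancer guides and not with sgRNA-FOXF1 (-0.29 and -0.42). LTBP4 was near the floor at no more than 1.5 RPKM.

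SMADs and their regulators had medians of -0.09, -0.16 and -0.43 over 10 genes compared. Of these, 2, 2 and 3 were at least 1.5-fold lower, where 9.93%, 14.7% and 13.2% of all genes compared were. By that much 0, 1 and 0 were higher, where 8.18%, 14.0% and 11.6% were. With 10 genes, counts this small are not read as a difference from those shares. Corrected for transcript length, the medians were 0.07, -0.15 and -0.03, so that the one with sgRNA-FOXF1 was near 0. At that setting 2, 3 and 3 genes were lower and 0, 3 and 1 higher. The shares of all genes at that setting are those given above for the further pathway genes. SMURF2, a ubiquitin ligase that SMAD7 brings to the receptor, was at 38.5, 35.7 and 22.4 RPKM, against 74.9 RPKM with sgRNA-NT. SKI, the corepressor related to SKIL, was at 6.0, 4.2 and 8.6 RPKM, against 12.8 RPKM with sgRNA-NT. SMURF2 was lowest with sgRNA-FOXF1 and SKI with sgRNA-AP1-71. FKBP1A, which encodes a protein that binds TGFBR1 and keeps it inactive, had ratios of -0.16, -0.42 and -0.76, STRAP, which encodes a partner of SMAD7, had -0.44, -0.09 and -0.65, and DAB2, an adaptor of receptor endocytosis, had -0.29, -0.52 and -0.47. SMAD2, the other receptor-activated SMAD of this pathway, was at no more than 1.4 RPKM.

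Known targets of TGF-beta lay on both sides of sgRNA-NT. Of 23 compared, 6, 10 and 6 were at least 1.5-fold lower, where 9.93%, 14.7% and 13.2% of all genes compared were. By that much 1, 2 and 1 were higher, where 8.18%, 14.0% and 11.6% were. The medians were -0.26, -0.44 and 0.03. Corrected for transcript length, 5, 8 and 6 were lower, where 6.41%, 11% and 8.94% of all genes were. At that setting 2, 2 and 3 were higher, where 7.54%, 13.2% and 11.4% were. CTGF, a secreted matricellular protein, was at 31.5, 24.0 and 17.3 RPKM, against 41.0 RPKM with sgRNA-NT. CTGF was lowest with sgRNA-FOXF1, at a log2 ratio of -1.24. FN1, which encodes fibronectin, had ratios of -1.49, -2.19 and -1.08, BGN, which encodes the proteoglycan biglycan, had -1.09, -1.58 and -0.32, and COL1A1, a chain of type I collagen, had -1.17, -1.50 and -0.06. In the other direction TAGLN, a gene of contractile cells, was at 215.6, 159.5 and 156.6 RPKM, against 111.9 RPKM with sgRNA-NT. Its ratios were 0.95, 0.51 and 0.48, past 1.5-fold only in sgRNA-AP1-69. The genes counted as higher were TPM1 (0.66) and SNAI2 (0.61) with sgRNA-AP1-71, and COL3A1 (0.86) with sgRNA-FOXF1. COL3A1 also lay above sgRNA-NT with the enhancer guides, at 0.32 and 0.36.

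**Figure D4:**
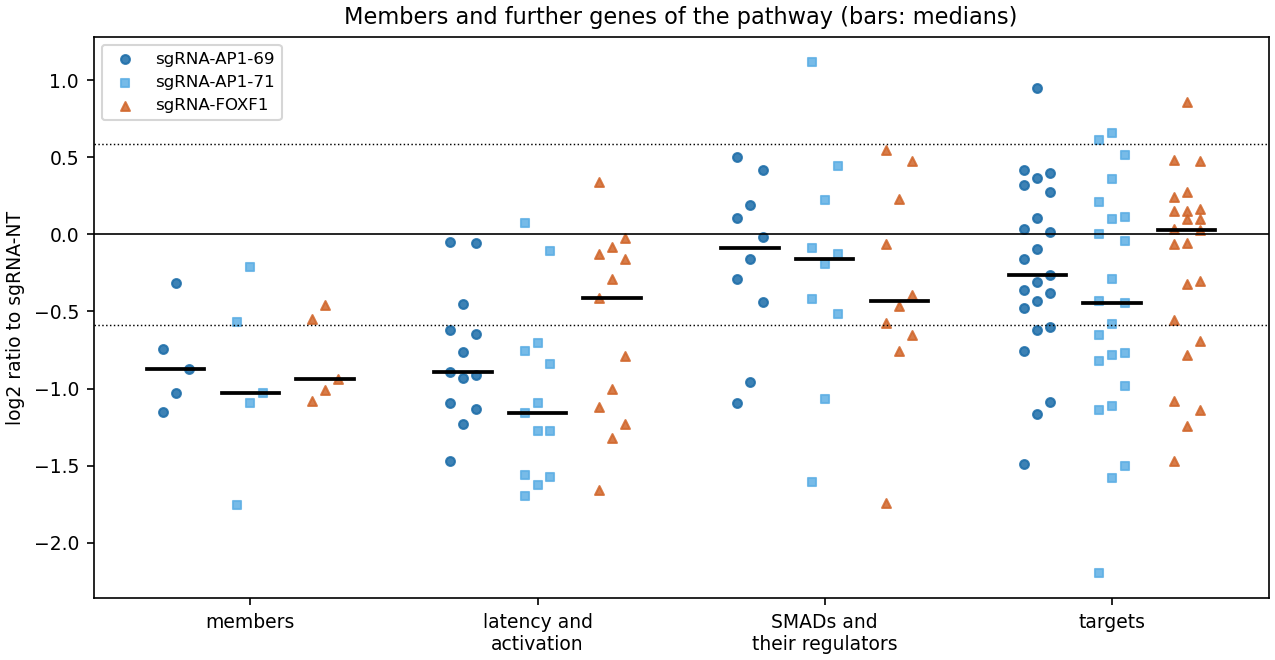
Log2 ratio to sgRNA-NT in the 3 targeted libraries for the 5 genes compared of the 10 (members), 13 genes of latency and activation, 10 SMADs and regulators and 23 targets, 1 point per gene, with bars at medians and dotted lines at 1.5-fold. Medians are lowest in the first and second groups for the enhancer guides, and the targets spread from -2.19 to 0.95.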

How the data were processed

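mRNA of 4 libraries, 1 per condition, was analysed. The authors aligned single reads to hg19 (TopHat2), tallied them by gene (HTSeq), turned these counts into RPKM by GENCODE gene models and quantile-normalized the result. For both tools the version is not given in the sources used here. Trisure and a stranded kit are described in the paper, while the labels name Trizol and the TruSeq RNA kit, so use of strand is unsure. The deposited values are RPKM with a floor of 1, and quantile normalization removes overall differences in level between libraries. Further columns hold the authors' log2 ratios to sgRNA-NT and were not used.

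Log2 ratios were computed from RPKM without a pseudocount for 7596 genes averaging 2 RPKM or more, and a gene was counted at 1.5-fold. No test was possible with 1 library a condition. The code was checked on simulated ratios with known 2-fold changes and a known length trend, without noise, floor or rounding. Such a check cannot show how the counts behave with 1 library a condition. Length and GC content came from canonical transcripts of GENCODE v44 lifted to GRCh37, matched for 11978 of 12033 genes, and trends were taken off by a cubic spline with 5 knots. The members and lists were chosen with earlier results of these data known. Genes outside the 10 were named by a fixed list of roles plus, in each list, up to 3 with the largest mean absolute log2 ratio at a mean of at least 5 RPKM; a gene of the target list is not reported here. Alternatives were a pseudocount of 1 RPKM, median centring, corrections for length, GC content or both, a 2-fold rule, a mean of at least 5 RPKM or every gene, and each enhancer guide alone. The site TGACGTCA was added after the sequences were seen. Python 3.11.15, numpy 2.4.6, pandas 2.3.3, scikit-learn 1.9.0 and matplotlib 3.10.9 were used.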

Additional observations from a re-analysis of the deposited data

How the results depend on the processing

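Of 117 alternative values for the counts and medians, 98 stayed within 1.5 times the count or within 1 guide-to-guide SD of the median. No ratio past 1.5-fold changed sign. The 98 include the counts of members at least 1.5-fold higher, which were 0 at every setting and had little room to move. A change from 4 to 3 of the 5 genes also falls within this rule, so 98 is a generous count. Under the 2-fold rule 2 of the 5 genes were lower with sgRNA-AP1-69, where 3.30% of genes compared were, and over the 7 genes above the floor 5 were lower by 1.5-fold with sgRNA-FOXF1, where 14.1% of the 9612 genes above the floor were. The median over the genes with sgRNA-AP1-71 was -0.71 corrected for length, -0.72 for length and GC content and -0.62 over the 7 genes. With sgRNA-FOXF1 it was -0.47 corrected for length and -0.60 for both. For the 47 further pathway genes, the count lower with sgRNA-AP1-69 was 12 corrected for both and 8 under the 2-fold rule. Of all genes, 5.98% and 3.30% were lower at these settings. The count higher with sgRNA-AP1-69 was 2 and 0 (length, 2-fold), where 7.54% and 1.34% of all genes were. With sgRNA-AP1-71 it was 1, 5 and 1 (centring, length, 2-fold), where 10.7%, 13.2% and 3.80% were. With sgRNA-FOXF1 it was 4, 2, 3, 0 and 2 (length, GC content, both, 2-fold, every gene). The shares there were 11.4%, 11.4%, 11.7%, 3.20% and 11.8%. The setting with every gene holds 57 further pathway genes. The cause was not tested. Centring on the median gave 12.0% of all genes lower and 5.82% higher with sgRNA-AP1-69, and 17.1% and 10.7% with sgRNA-AP1-71.

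No paired analysis was possible because each condition has 1 library. For the same reason no library was left out. Depth is unknown, and the floor of 1 RPKM hides any change of TGFB2, SKIL and TGFBI.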
